A study of Drosophila melanogaster with 18 samples.

Results

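Late cultures of the Drosophila melanogaster cell line R7, sampled at passages P16, P17 and P19, were compared with early cultures of the same line, 2 arrays at P2 and 1 at P3. The 6 arrays were chosen by line and passage from the 18 arrays of the series, in which the line R3 was followed alongside R7. Of 18769 non-control probe sets, the 9479 with an intensity above 32 on at least 2 of the 6 arrays were tested. Expression was measured from total RNA on Affymetrix 3' arrays, for cells kept in Schneider's medium with fetal bovine serum. The labels give no genotype, and early and late cells differ, as far as the labels say, only in passage. R7 is 1 culture followed over time, so the arrays of a stage are successive passages or repeat samples of it. The p-values therefore measure the spread between these samples, not between independent cultures.

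Cultures started from fly embryos hold cells of many fates, and a continuous line emerges as some of them keep dividing over passages. Transcription factors of the homeodomain, T-box and zinc finger families fix such fates, while septate junctions, polarity proteins and cuticle mark epithelia. Haemocytes, the blood cells of the fly, carry scavenger receptors and secrete matrix and immune proteins. The series set out to find genes that change together while cells become immortal.

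In late cultures 893 probe sets were higher, 9.42% of those tested, and 969 were lower, 10.2% (limma, Benjamini-Hochberg adjusted p under 0.05, as for every call here). Large changes were mostly falls, since 44 of the higher and 202 of the lower probe sets changed at least 4-fold. With 1 probe set kept per gene, 7515 genes were tested, of which 717 (9.54%) were higher and 813 (10.8%) lower. Their median difference was -0.04 on the log2 scale, and it was 0.06 after quantile normalization, a shift of all genes that has to be held against small differences. Fewer calls were kept when arrays were left out: 247 genes (3.29%) were higher and 370 (4.92%) lower in each of the 6 fits with 1 array left out. Calls kept in each of them are described below as holding in all 6 fits. These fits also have fewer residual degrees of freedom, and the part of that in the lost calls was not tested. Where a family is said to have 0 calls in a direction, limma gave 0 members an unadjusted p under 0.05 in that direction unless a count is stated. In RNA from a whole culture, fewer cells of a type and less RNA per cell cannot be told apart.

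Late arrays also had fewer probe sets above the floor, with 44.1% to 46.2% of the non-control probe sets against 47.5% to 48.9% in the early arrays. The ratio of 3' to 5' signal of GAPDH was 1.18 to 1.20 in late and 1.22 to 1.27 in early arrays, and that of actin lay between 1.86 and 2.06 in both. The part of these differences in the results was not tested. Values below 32 were set to 32 before log2, and where arrays of the lower group lay there the fold is a lower bound, written "at least". This holds for the whole group unless the number of such arrays is stated. Setting values to the floor removes their spread, so the p-value of a gene with a whole group at the floor rests on the spread of the other group.

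Some genes went from below the floor to strong signal or the reverse. The heparan sulfate 3-O-sulfotransferase gene Hs3st-A read 25.8, 24.3 and 16.5 in P2 replicate 1, P2 replicate 2 and P3, and 1991, 2360 and 2190 in P16, P17 and P19. All 3 early arrays lay below the floor and all 3 late arrays far above it, which puts the rise at 68.0-fold or more (limma adjusted p = 1.3e-06). The gene passed the filter on low values through its late arrays alone. CG31676, of the Ly6 family of small membrane-anchored proteins, read 4660, 4634 and 5058 early and 17.1, 23.8 and 27.9 late. It fell at least 149-fold (adjusted p = 3.33e-07), and its P3 value was as high as those at P2.

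Among the 20 largest rises, the homeodomain gene btn read 474, 473 and 349 early against 4100, 4564 and 4276 late, a rise of 10.1-fold (limma adjusted p = 6.66e-05). The FGF receptor gene btl, known from the tracheal system, read 75.5, 84.4 and 61.3 early and 728, 466 and 708 late, 8.51-fold higher (adjusted p = 0.000371). All 20 rises held in all 6 fits. At P3, 19 of the 20 genes lay between 0.5 and 2 times their P2 mean and 0 lay above that range. The exception was CG31337, which read 349 and 383 at P2, 109 at P3 and 1884 to 3138 in late arrays.

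Of the 20 largest falls, 18 held in all 6 fits. The call of fon, which encodes a secreted haemolymph protein, was lost without P2 replicate 2 (adjusted p = 0.0534), and that of teq in each fit but the one without P3 (0.114 at most). Here P3 separated the genes: 15 of the 20 read under 0.5 times their P2 mean at P3, and 5 did not. The latter were CG31676, Hesr, unpg, Esp and slou.

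**Figure D1:**
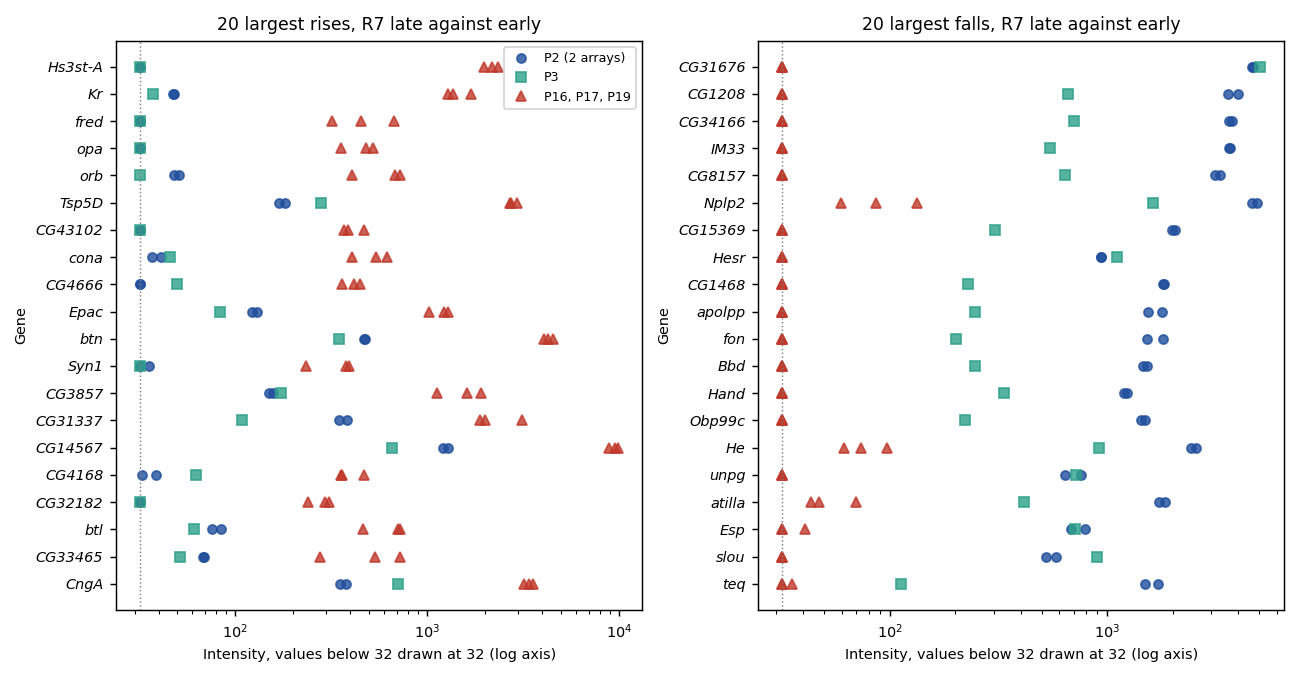
Intensity (log axis) of the 20 genes with the largest rises (left) and falls (right) in R7; circles are the 2 P2 arrays, squares P3 and triangles the 3 late arrays, with values below 32 drawn at 32 on the dotted line. P3 sits with P2 for most rises and for 5 of the falls, and between P2 and the late arrays for the other falls.

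Many of the modest rises lay on 1 chromosome. Genes were assigned to chromosome arms through the RefSeq annotation of assembly Release 6. Of 1478 tested genes on arm 3L, 21.6% were higher and 7.85% lower, with a median difference of 0.18 (log2). On 2L the shares were 3.48% and 12.4% with a median of -0.11, on 2R 4.67% and 12.1% with -0.11, and on X 6.38% and 9.73% with -0.05. On 3R, the other arm of chromosome 3, 10.8% were higher and 11.3% lower with a median of -0.05. After quantile normalization, which puts the median of all genes at 0.06, the medians were 0.27 on 3L, -0.01 on 2L, -0.006 on 2R, 0.06 on X and 0.05 on 3R. Against the median of all genes 3L was thus higher and 2L and 2R were lower on both scales, while X and 3R lay close to it.

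The shift was measured per array as the median of 3L genes minus the median of the genes on other arms, over genes with a mean intensity of at least 128, 4 times the floor, and relative to the 6-array mean. It was -0.15 ± 0.004 (SD, n = 3) in early and 0.15 ± 0.03 (n = 3) in late arrays, a difference of 0.30 on the log2 scale. No late array overlapped an early one, and the two-sided exact permutation p was 0.1, the smallest that 3 against 3 arrays allow. Measured in the same way, X, 2L, 2R and chromosome 4 had differences of -0.05, -0.11, -0.10 and -0.30 with the same p, and 3R had -0.01 (p = 0.2, exact permutation). The p therefore does not set 3L apart from these arms, and since each arm is read against the others the 6 values are not independent.

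On the deposited scale, all 17 bins along 3L of at least 60 neighbouring genes had a positive median difference, from 0.16 to 0.38. The shift continued across the centromere into 3R, where the first 6 of 21 bins were positive and the other 15 negative. The edge set on these values lies between CG42394 and CG6567. No bin on 2L or 2R was positive, and 2 of 14 on X were, with at most 0.02. The 472 genes of 3R on the centromere side of this edge had 28.8% higher and 5.72% lower, and the 1343 genes beyond it had 4.47% higher and 13.3% lower. Because this region was chosen after its values were seen, its figures are a description.

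**Figure D2:**
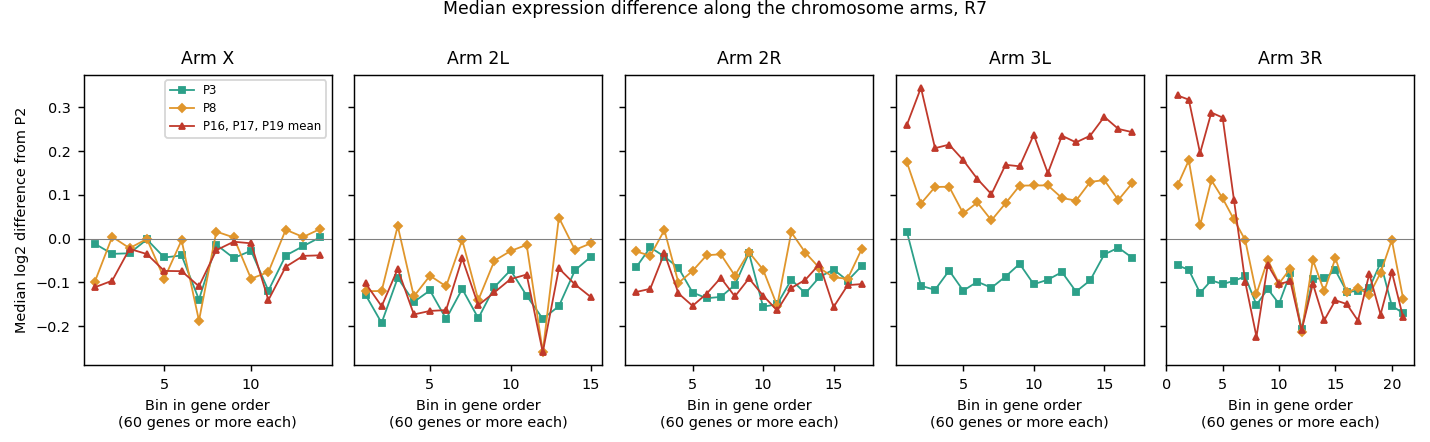
Median log2 difference from the P2 arrays for bins of at least 60 neighbouring genes in gene order along 5 chromosome arms of R7, for P3 (squares), P8 (diamonds) and the mean of the 3 late arrays (triangles). On this deposited scale late values are positive along all of 3L and the first 6 bins of 3R and mostly negative elsewhere, P8 lies in between, and P3 shows no such step.

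3L and this inner part of 3R held 1950 genes, 25.9% of those tested, and 455 of the 717 higher genes, 63.5%. These rises were small: 416 of the 455 were under 2-fold. Of the 43 genes that rose at least 4-fold, 15 lay in the region. Over genes with a mean of at least 128, its median was 0.34 (log2) above that of X, 2L, 2R and outer 3R, which is 1.27-fold. Relative to the P2 arrays this gap was 0.006 at P3, 0.02 at P4, 0.08 at P7 and 0.17 at P8, and 0.30, 0.36 and 0.37 at P16, P17 and P19. The same genes in R3 showed gaps of at most 0.04 on all 9 arrays, and no R3 array reached the R7 value of P7. Genomic DNA was not measured on these arrays.

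**Figure D3:**
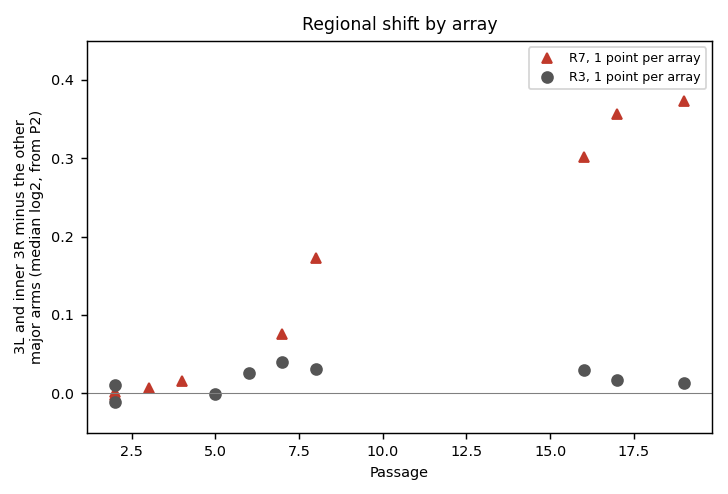
Median log2 difference of genes on 3L and inner 3R minus that of the other major arms, relative to the P2 arrays of the same line, against passage; each point is 1 array. R7 (triangles) reaches 0.30 to 0.37 at P16 to P19, while R3 (circles) stays between -0.01 and 0.04; the P2 points of each line centre on 0 by construction.

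On chromosome 4, the small dot chromosome, 15 of 51 tested genes were lower and 1 was higher, with a median of -0.24. Over the 32 with a mean of at least 128, the gap to the other arms was -0.16, -0.17 and -0.15 in the late R7 arrays. On the same measure R3 read -0.09 at P16, -0.18 at P17 and 0.02 at P19, and its next lowest array, P7, read -0.13. The R7 values thus lay within the range of R3 through the P17 array alone.

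Genes of growth and basic cell functions that rose lay mostly in that region of chromosome 3. Across 12 families, from DNA replication to Polycomb and trithorax genes, 411 genes were tested, of which 37 rose and 13 fell. Over all tested genes 9.54% rose and 10.8% fell. Of the 37 that rose, 33 lay among the 114 family members on 3L and inner 3R, where 0 fell (1 at an unadjusted p under 0.05 by limma). Over all 1950 genes of that region 23.3% rose and 7.33% fell. Whether these families differ from the other genes of the region was not tested. Among the 297 members elsewhere 4 rose and 13 fell, while over all genes of X, 2L, 2R and outer 3R 4.72% rose and 11.9% fell. Few of the 37 rises held in all 6 fits. Mitochondrial ribosomal proteins had 3 that did. The DNA replication, mitosis, cytosolic ribosomal and Polycomb and trithorax families had 1 each, and the other families 0.

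DNA replication genes had 5 of 37 higher and 0 lower (1 at an unadjusted p), and the median was 0.40 for the 9 members in the region and 0.07 for the 28 outside. Psf1, a subunit of the GINS complex of the replication fork, on 3L, read 105, 114 and 107 early and 218, 223 and 239 late (2.08-fold, limma adjusted p = 0.000665). All 5 mitosis and kinetochore genes that rose, of 43 tested, lay in the region, among them the spindle checkpoint gene mad2 (1.64-fold, adjusted p = 0.0029). Proteasome subunits had 4 of 29 higher, all in the region, and 0 lower (1 at an unadjusted p). None of these 4 held in all 6 fits. Mitochondrial ribosomal proteins had a median of 0.29 in the region (23 genes, 6 higher) and -0.16 outside (48 genes, 1 higher and 2 lower).

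Of 33 cytosolic ribosomal protein genes, RpS5b rose 5.31-fold and RpS19b fell. RpS5b read 370, 334 and 659 early and 1353, 3068 and 2947 late (adjusted p = 0.00969), and cross-hybridisation with its close paralog was not tested. The RpS19b call was lost in every fit but the one without P3 (adjusted p up to 0.141). Polycomb and trithorax genes had 5 of 26 higher, 4 of them in the region. The other was Psc, a subunit of Polycomb repressive complex 1, which is on 2R and rose 1.68-fold (adjusted p = 0.00687).

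Some regulators of cell fate went from clear signal to the floor or the reverse, while many others were not called. Of 22 tested homeodomain genes outside the Hox clusters, 8 fell and 2 rose, all 10 in all 6 fits, and 12 were not called. Among the latter, the eye and head gene so read 343, 297 and 359 early and 334, 323 and 352 late. Of 26 bHLH genes 6 fell and 4 rose, and the broadly expressed da, a partner of other bHLH factors, read 932, 925 and 1121 early and 944, 1090 and 989 late without a call. Of 11 nuclear receptor genes 1 rose and 0 fell (2 at an unadjusted p). The homeodomain gene unpg read 753, 636 and 716 early and 3.28, 2.24 and 4.77 late, a fall of at least 21.9-fold (limma adjusted p = 4.88e-06). The muscle identity gene slou read 582, 524 and 897 early and between 2.86 and 5.38 late. Both had P3 values at or above their lower P2 value, and every late array lay below the floor.

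In the Iroquois complex of homeodomain genes on 3L, caup fell at least 4.78-fold (adjusted p = 6.66e-05). Its neighbours ara and mirr, named here after their values were seen, fell at least 4.5-fold and 5.95-fold, with 2 of the 3 late arrays of mirr under the floor. Dr, a dorsoventral patterning gene, fell at least 5.01-fold, also with 2 late arrays under it. The 3 tested Hox genes Scr, Dfd and Antp, which set segment identity, all fell in all 6 fits. Their P3 values went different ways, with Dfd at 139 and 131 at P2 and 263 at P3, and Antp at 120 and 120 at P2 and 69.7 at P3.

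T-box genes split. The cardiac and amnioserosa genes Doc1, Doc2 and Doc3 and the wing patterning gene bi fell, and mid rose 6.90-fold, from 67.0, 64.4 and 123 to 803, 427 and 510 (limma adjusted p = 0.00297). Doc1 read 421 and 375 at P2, 156 at P3 and 3.60 to 14.6 late. The call of Doc2, named here after its values were seen, was lost without P2 replicate 2 (adjusted p = 0.0545).

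Zinc finger factors also went both ways. Of 16 Snail-type and related zinc finger genes 4 fell and 2 rose, all in all 6 fits, with a median of -0.51. Against P2 alone, 9 of the 16 were lower late and 2 higher, where 18.2% and 10.1% of all genes were. The tendon cell regulator sr fell at least 6.89-fold, the odd-skipped relative bowl at least 7.69-fold and the head gap gene btd at least 3.49-fold. Kr rose 32.8-fold, from 47.8, 48.2 and 37.5 to 1709, 1296 and 1373 (limma adjusted p = 2.38e-05), and opa rose at least 14.0-fold. The forkhead gene croc read 30.6, 40.8 and 36.4 early and 266, 203 and 292 late, at least 6.92-fold higher with 1 early array under the floor (adjusted p = 0.000207). Of 8 forkhead genes 2 rose, both on 3L or inner 3R, and 0 fell (3 at an unadjusted p). Among bHLH factors Fer1 rose at least 2.59-fold from below the floor, while Hand, of heart and blood progenitors, fell at least 24.7-fold.

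Of 10 Hes-family repressors, 4 fell and 0 rose (1 at an unadjusted p). Hesr read 936, 932 and 1108 early and 13.2 to 14.4 late, at least 30.9-fold lower, and E(spl)m3-HLH, induced by Notch signalling, fell 3.92-fold. Both Sox genes that were called, Sox100B and SoxN, fell, of 6 tested. Over the 5 GATA and Runx genes 0 were called late against early by limma, and 1 had an unadjusted p under 0.05. The GATA factor srp of haemocytes and fat body read 1060 and 895 at P2, 269 at P3 and 623, 651 and 452 late, so P3 lay below both other groups.

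Among signalling families, BMP and activin genes had 6 of 19 lower and 0 higher, 4 of the falls in all 6 fits. The ligand dpp fell at least 3.04-fold, the activin-type ligand daw 4.01-fold, the type II receptor wit at least 3.07-fold and the inhibitory Smad gene Dad 2.69-fold (limma adjusted p between 0.000594 and 0.00458). For Dad the early arrays read 351, 305 and 258 and the late arrays 112, 102 and 125, and the groups did not overlap. Of 10 Wnt genes 1 rose and 1 fell, the ligand gene Wnt6, which fell at least 3.55-fold.

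Cyclic nucleotide signalling had 6 of 18 genes higher and 4 lower, with 4 of the rises in all 6 fits and 0 of the falls. Epac, whose product passes the cyclic AMP signal to a small GTPase, read 130, 122 and 83.7 early and 1234, 1024 and 1294 late (10.7-fold, adjusted p = 0.000199). The adenylyl cyclase gene Ac13E rose 3.23-fold and the cyclic nucleotide-gated channel gene CngA 7.48-fold. None of the 6 genes that rose lies on 3L or inner 3R. JNK and TNF pathway genes had 5 of 15 higher and 1 lower, and 3 of the 5 lie in that region, among them the JNK phosphatase gene puc (1.73-fold, adjusted p = 0.00519) and the kinase gene msn (1.54-fold). Of 18 Hippo pathway genes, 2 fell and 0 rose, and of 16 ecdysone response genes 5 fell and 0 rose (1 at an unadjusted p).

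**Figure D4:**
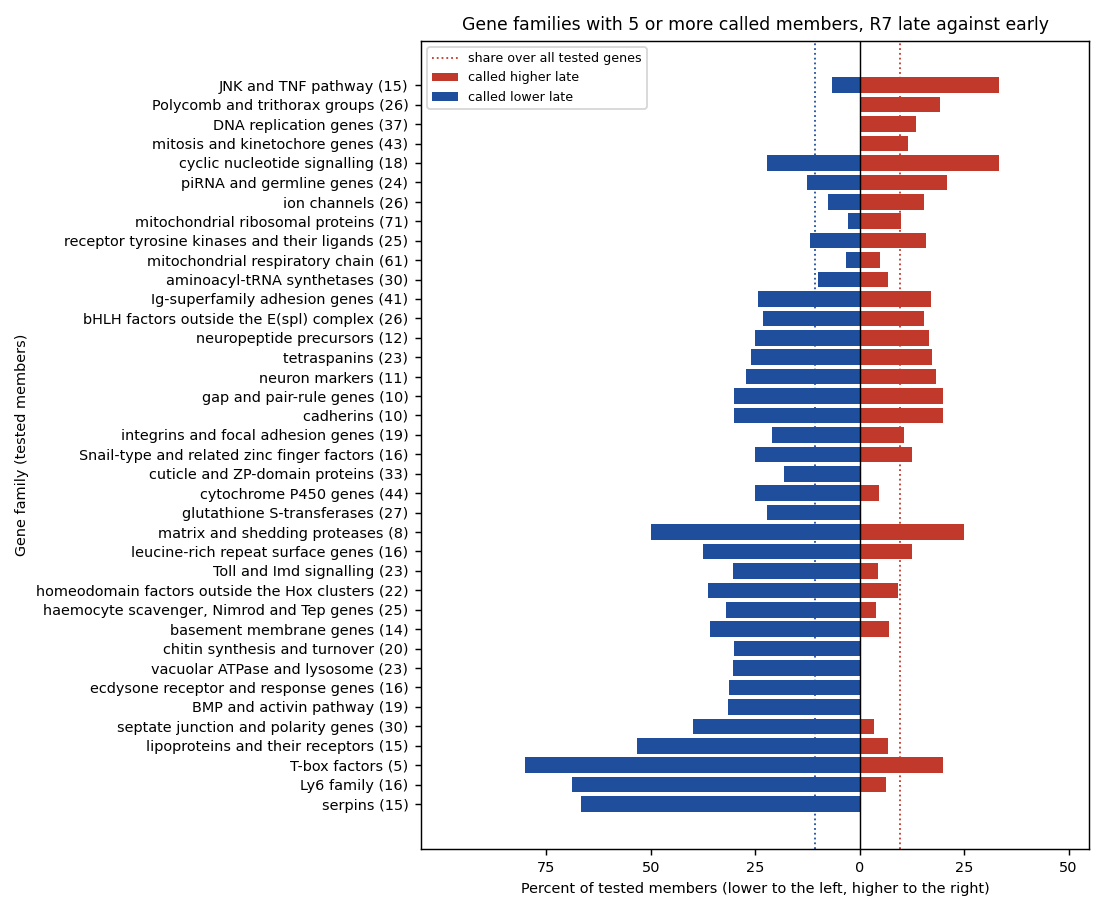
Percent of tested members called higher (bars to the right) and lower (bars to the left) in R7 late against early arrays, for the families with 5 or more called members; numbers of tested members are in brackets and dotted lines mark the shares over all tested genes, 9.54% higher and 10.8% lower. Serpins, Ly6, T-box and lipoprotein genes have the largest shares of lower members among the families drawn.

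In epithelial families, and also in the Ly6 family of membrane-anchored proteins, falls outnumbered rises. Of 30 septate junction and polarity genes, which seal and orient epithelia, 12 were lower and 1 higher, with 8 of the falls in all 6 fits and a median of -0.39. The apical determinant crb read 531, 517 and 497 early and 23.5, 37.8 and 50.5 late, a fall of at least 13.1-fold with 1 late array under the floor (limma adjusted p = 8.42e-05). The scaffold gene vari fell 6.23-fold. At P3, 1 of the 30 was called lower than at P2, against 5.32% of all genes, and the family median of P3 minus P2 was 0.06. In the Ly6 family 11 of 16 were lower and 1 higher, with 7 of the falls in all 6 fits and a median of -1.05. Cuticle and ZP-domain genes had 6 of 33 lower and 0 higher (1 at an unadjusted p), and Cpr49Ag fell at least 8.42-fold.

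Other surface genes were exchanged in both directions. Of 41 Ig-superfamily adhesion genes 7 rose and 10 fell, 6 and 7 of them in all 6 fits. The gene fred read 18.6, 18.3 and 23.1 early and 673, 456 and 321 late, while dpr17, of a family of neuronal surface receptors, read 590, 497 and 320 early and 13.9 to 18.5 late. These are a rise of at least 14.4-fold and a fall of at least 14.2-fold (limma adjusted p = 0.000342 and 0.000199). Tetraspanins had 4 of 23 higher and 6 lower, with Tsp5D 13.6-fold higher. Leucine-rich repeat genes had 6 of 16 lower and 2 higher, and the Toll-type receptor gene 18w fell 9.39-fold, from 968, 882 and 788 to 117, 76.8 and 90.2. The guidance receptor genes fra and Dscam1 rose 2.14-fold and 1.94-fold, and kirre, known for muscle fusion, rose 3.16-fold.

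Genes of adhesion to matrix and of matrix itself also went both ways. The integrin alpha subunit gene if rose 2.04-fold and the tensin gene by 2.76-fold, among 2 of 19 focal adhesion genes higher and 4 lower. Both rises and none of the 4 falls held in all 6 fits. Against P2 alone, 9 of these 19 genes were lower late and 2 higher, where 18.2% and 10.1% of all genes were. At P3, 5 of the 19 were already called lower than at P2, against 5.32% of all genes. Of 14 basement membrane genes 5 fell and 1 rose: the peroxidasin gene Pxn fell at least 3.51-fold and the laminin subunit gene wb 2.18-fold, while the call of the perlecan gene trol, the one that rose, was lost in 4 fits (adjusted p up to 0.0674). Among 8 matrix proteases and their inhibitors, stl fell at least 5.67-fold and Timp 2.80-fold, and the ADAM protease gene kuz rose 1.63-fold. The sulfatase gene Sulf1, which trims heparan sulfate, fell 6.73-fold, opposite in direction to Hs3st-A.

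At P3 more genes were called lower than higher against P2. A second fit kept P3 as a group of its own, 1 array whose spread was taken to equal that of the other groups. Late minus P2 then had 759 genes higher (10.1%) and 1365 lower (18.2%), and P3 minus P2 had 93 genes higher (1.24%) and 400 lower (5.32%). Both comparisons share the 2 P2 arrays.

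The place of P3 on the way from P2 to late was expressed in percent, with P2 at 0 and the late mean at 100. For the higher genes the median was 1.32%, and 71.9% of them lay under 25%. For the lower genes the median was 46.9%, with 33.0% under 25% and 31.4% over 75%. Values of genes at the floor in P3 and in late arrays are 100 by construction, and those of genes at the floor in P2 and P3 are 0. At P4 the medians were 19.8% for higher and 69.4% for lower genes, and at P8 they were 56.3% and 90.1%. All of these positions share the P2 and late arrays that chose the genes and are a description.

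**Figure D5:**
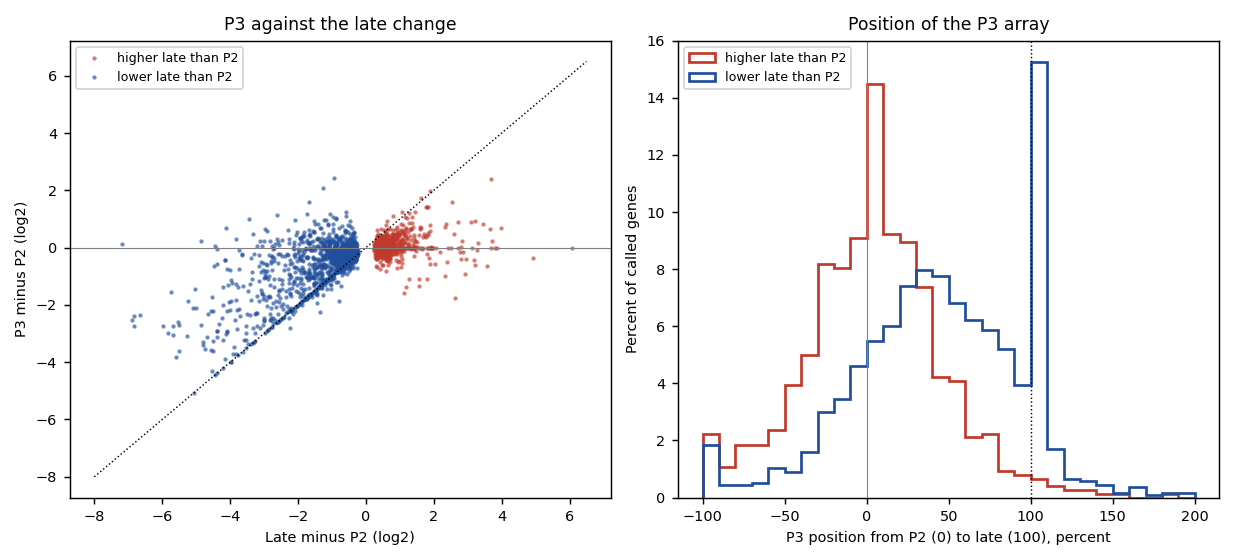
Left, P3 minus P2 against late minus P2 (log2) for the genes called between late and P2; the dotted line marks equal values. Right, share of these genes by the position of P3 from P2 (0) to late (100), in percent, with positions beyond the axis drawn at its ends; higher genes centre near 0, and lower genes spread from 0 to 100.

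Haemocyte scavenger, Nimrod and Tep genes had 8 of 25 lower and 1 higher late against early, 2 of the falls in all 6 fits, and the median of P3 minus P2 was -1.75. At P3, 7 of the 25 were called lower than at P2. The haemocyte gene He read 2547 and 2436 at P2, 919 at P3 and 97.2, 74.0 and 61.6 late (23.4-fold lower, limma adjusted p = 0.00127). Between these stages He did not fall steadily, since P4, P7 and P8 read 782, 2336 and 1361. The late minus early difference was negative for 22 of the 25 genes, but not for all bright ones. NimC4 read 1054, 1043 and 625 early and 2007, 2380 and 925 late, without a call. The scavenger receptor gene crq read 971, 875 and 556 early and 941, 1378 and 683 late, also without a call. The summed intensity of the 25 genes was 20431 and 19120 at P2, 8167 at P3 and 10384, 12592 and 7140 late, so P3 was as low as late arrays.

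Of 25 antimicrobial peptide and peptidoglycan receptor genes, 16 were called lower at P3 than at P2 and 19 lower late than at P2. Late against the 3 early arrays 4 fell, 2 of them in all 6 fits, and 0 rose. The diptericin gene DptB read 897 and 826 at P2, 73.6 at P3 and 7.60 to 16.5 late. Its P3 value lay far from P2, and the call of late against the 3 early arrays (limma adjusted p = 0.0446) was lost in every fit but the one without P3 (up to 0.147). The immune-induced gene IM33 read 3623 and 3658 at P2, 546 at P3 and 3.24 to 13.3 late (at least 60.5-fold lower, adjusted p = 0.00339).

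Serpins, inhibitors of serine proteases, had 10 of 15 lower and 0 higher, 7 in all 6 fits. The serpin gene nec, which restrains Toll activation, fell at least 4.41-fold, and its P3 value of 97.7 lay between 160 and 179 at P2 and 16.9 to 31.0 late. Spn42Dd read 255, 239 and 230 early and 59.2, 78.6 and 53.2 late, with P3 close to P2. Toll and Imd signalling genes had 7 of 23 lower and 1 higher, 3 of the falls in all 6 fits. The receptor gene Tl read 824 and 762 at P2, 930 at P3 and 322, 182 and 163 late.

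Lipoproteins and their receptors had 8 of 15 lower and 1 higher, 5 of the falls in all 6 fits. The lipophorin precursor gene apolpp, on chromosome 4, read 1790 and 1532 at P2, 247 at P3 and 9.22 to 19.1 late, at least 27.5-fold lower (limma adjusted p = 0.0075). The lipophorin receptor gene LpR1 fell 13.4-fold, from 1019, 854 and 548 to 57.8, 66.0 and 51.7, and the lipocalin gene NLaz at least 4.12-fold with P3 at 155 against 124 and 119 at P2. Of 20 chitin genes 6 fell and 0 rose, and the growth factor-like Idgf1 read 2657 and 2474 at P2, 1182 at P3 and 86.1 to 236 late.

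Late against the 3 early arrays, detoxification, lysosomal and glycolytic families had more calls lower than higher, while the fatty acid and respiratory chain families did not. Cytochrome P450 genes had 11 of 44 lower and 2 higher, 3 and 2 of them in all 6 fits. The hydrocarbon synthesis gene Cyp4g1 fell at least 3.19-fold (limma adjusted p = 6.66e-05), and its paralog Cyp4g15 rose at least 7.47-fold, from 33.3, 38.5 and 31.4, 1 of them under the floor, to 291, 199 and 295. Glutathione S-transferases had 6 of 27 lower and 0 higher (3 at an unadjusted p), 2 in all 6 fits. Vacuolar ATPase and lysosome genes had 7 of 23 lower and 0 higher, and none of these calls held in all 6 fits. The glycolysis family had 3 of 12 lower and 0 higher. In it Pepck1, an enzyme of gluconeogenesis, fell 5.77-fold in all 6 fits, and the calls of Pgi and Tpi were lost in 5. Respiratory chain genes had 3 of 61 higher, all on 3L or inner 3R, and 2 lower, with ND-19 1.76-fold lower. Against P2 alone, 13 of the 61 were lower late and 3 higher, where 18.2% and 10.1% of all genes were. Fatty acid synthesis and lipid storage genes had 3 of 17 higher, all on 3L or inner 3R and none in all 6 fits, and 0 lower (3 at an unadjusted p).

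Germline genes went both ways: piwi, a partner of small RNAs that silence transposons, read 738, 644 and 561 early and 102, 106 and 98.0 late (6.32-fold lower, limma adjusted p = 7.34e-05), while the RNA-binding gene orb rose at least 13.7-fold with 1 early array under the floor. Of 24 such genes 5 rose and 3 fell. The sex determination gene dsx fell 3.97-fold. Of 8 actin and tubulin genes 4 fell and 0 rose. Act79B read 1468 and 1475 at P2, 3267 at P3 and 201 to 264 late (7.96-fold lower), and cross-hybridisation between the closely related actin genes was not tested.

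Among neuropeptide precursors Nplp2 fell 37.7-fold, and from below the floor Mip rose by a factor of at least 4.22 and sNPF by at least 3.82. The chloride channel gene Best2 fell at least 8.35-fold, from 280, 230 and 296 to 7.33, 15.5 and 20.9 (limma adjusted p = 4.4e-05).

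Some genes that fell lay side by side. Outside 3L and inner 3R there were 6 runs of at least 4 neighbouring tested genes that all fell, and 1 run that rose. Within the region 3 runs fell and 8 rose. Over all genes of the region 23.3% were higher and 7.33% lower, and over X, 2L, 2R and outer 3R 4.72% and 11.9%. Whether there were more runs than such shares give was not tested. The genes named in this paragraph by their place in a run were chosen after their values were seen. On 2L, 7 genes in a row fell: for, CG16704, CG3513, CG16713, IM33, CG3604 and CG10031. Of these, CG16713 read 1207 and 1244 at P2 and 145 at P3, and CG10031 read 787 and 739 at P2 and 164 at P3, with all late arrays under 10 for both. The calls of for, CG16704, CG3513, CG16713 and CG3604 were lost in at least 4 of the 6 fits with 1 array left out. A second run on 2L held CG31674, Oseg5, CG31676, twit and bero, whose calls held in all 6 fits, and P3 was not called different from P2 for any of these 5.

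Also on chromosome 3, Doc3, CG5194, Doc2, Doc1 and Argk1 formed a run on 3L, and Ama, Dfd, Scr and Antp one on 3R, both inside the region whose median rose. On 2R the run of rises held Tina-1, CG15861, CG3770, CG2790 and CG2765. Of these, CG3770 read 956 and 939 at P2, 1414 at P3 and 3619, 3194 and 3669 late, and the calls of Tina-1 and CG2765 were lost in 4 and 5 fits.

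The labels name no cell type, and marker lists are given as summed intensity over their tested members. Of 6 adult muscle precursor markers, twi rose 1.90-fold and Him fell 9.15-fold, while zfh1 read 1511, 1601 and 1434 early and 1809, 1751 and 1721 late and htl 2370, 2017 and 2353 early and 3152, 2274 and 2903 late, without a call. The twi call was lost in 4 fits (adjusted p up to 0.0789). Also uncalled were ct, at 96.3, 85.2 and 110 early and 85.1, 85.5 and 105 late, and vg, near the floor throughout. The summed intensity of the 6 was 5098 to 6036 early and 5810 to 7241 late. Without the 2 brightest, htl and zfh1, the other 4 summed to 1480 to 2249 early and 1786 to 2352 late. Glia markers summed to 6083 to 6668 early and 6380 to 6951 late, with 2 of 8 lower. Without their 2 brightest members, loco and nrv2, the other 6 summed to 2927 to 3194 early and 2446 to 2807 late. In each late array 6 of the 8 lay above the floor, against 7 or 8 early. Neuron markers summed to 2877 to 4469 and 2320 to 3601, sarcomere genes to 4879 to 5424 and 4628 to 4942, and gut markers to 307 to 557 and 205 to 255. Without unc-13 and elav the other 9 neuron markers summed to 1630 to 2224 early and 1157 to 1613 late. The sums of trachea, fat body and myoblast fusion markers also rested in part on 1 or 2 bright members. Trachea markers summed to 897 to 1130 early and 1043 to 1139 late, but without btl, which rose, the other 5 summed to 813 to 1068 early and 410 to 576 late, and 4 of 6 lay above the floor in each late array against 6 in each early one. Fat body markers summed to 8834 to 13068 and 9788 to 10587. Without the lipid synthesis genes FASN1 and Desat1 the other 7 summed to 3599 and 3165 at P2, 873 at P3 and 1543, 927 and 666 late, and 4 to 6 of the 9 lay above the floor late against 8 or 9 early. Myoblast fusion genes summed to 7097 to 7985 and 7731 to 8482, and without kirre, which rose, to 6471 to 7072 and 5530 to 6149. The part of any of these cell types in the gene changes was not tested.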

How the data were processed

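The authors deposited 1 linear intensity for each probe set and array in the series table. Summarisation, scaling and the software used are not given in the sources used here. RNA was labelled with a 3' IVT kit, per the labels' protocols. Probe sets named by exactly 1 symbol numbered 13647 of 18769, 402 had several and 4720 none. RefSeq (assembly Release 6) gave arms and gene order only.

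Values under 32 were set to 32, then log2 was taken. Late and early arrays were compared with limma 3.58.1 (lmFit, eBayes) in R 4.3.3, with 4 residual degrees of freedom, and 3 with P3 as its own group. Benjamini-Hochberg adjustment ran over all 9479 probe sets. The script was tested on simulated data. The probe set with the highest mean stood for a gene. Figures were drawn with matplotlib 3.10.9. For arrays, their number limits the precision.

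The 77 gene families, the comparison and the rules were chosen with earlier results of these data known. Genes named were the 20 largest rises and falls without overlap of arrays, up to 4 called members per family with the smallest adjusted p and up to 2 uncalled ones, and cell type markers. Families are described by counts, and each had at least 3 tested members. Alternatives were quantile normalization, equal array medians, floors of 16 and 64, other filters, a trend with robust prior, 1 probe set per gene, other sets of arrays, a 2-fold minimum and each array left out. The chromosome 3 region, the minimum mean for arm medians, the counts of calls held in all fits the runs of neighbours and the marker sums without their brightest members were added after seeing the data.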

Additional observations from a re-analysis of the deposited data

How the results depend on the processing

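Late against early, 1862 probe sets were called, and 880 without a filter on low values, where more probe sets are tested, and 652 with at least 2-fold. With 1 array left out there were 789 to 2563. Higher calls numbered 893, 1619 after quantile normalization and 439 without a filter, and 321 to 948 with 1 array left out. Lower calls numbered 969, 593 with a floor of 64, 441 without a filter and 1615 with P3 as a group of its own, and 468 to 1615 with 1 array left out. The share of calls that were higher was 48.0% as deposited, 65.7% with quantile normalization, and equal array medians gave 54.6%. Late minus P2 had 2563 calls, 1690 with a floor of 64 and 1232 without a filter, and 1027 to 2660 with 1 array left out. P3 minus P2 had 608. Apart from the construction of these alternatives, the cause was not tested. Of the 258 genes the rule names, 96 stayed called under all alternatives and 162 in all 6 fits with 1 array left out, and 0 reversed. Calls were lost for 72 of them without P2 replicate 1, 92 without P2 replicate 2, 11 without P3, 69 without P16, 40 without P17 and 76 without P19. The gap of 3L and inner 3R lay between 0.30 and 0.36 (log2) under the settings run. Family medians relative to that of all genes turned in sign for 2 of 77 families after quantile normalization and 0 with equal medians. No paired analysis was possible because the labels tie no late passage to an early array, and the numbers of these arrays only name them. Low intensities limit the folds, since 184 of the 813 genes that fell lay under the floor on all late arrays.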
